A study of Mus musculus with 12 samples.

Results

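Genes that mark neutrophils were followed in mouse liver, 8 in all: S100a8, S100a9, Retnlg, Csf3r, Ngp, Camp, Ltf and Mpo. They were chosen by name, as 8 of the 21936 genes of the table, and their levels were compared between fibrotic livers (LFG), regressing livers (REG) and livers treated with exosomes of human adipose-derived mesenchymal stem cells (hADMSCs-Exo). All mice were males of the strain C57BL/6 in the labels, C57BL/6J in the study's methods, bought at 6 weeks of age, and all received carbon tetrachloride (CCl4, 1 mL/kg intraperitoneally, 2 times a week for 8 weeks), which injures hepatocytes and leaves a fibrotic liver. The LFG mice were killed at the end of that period. The REG mice then received 200 µL of PBS, and the hADMSCs-Exo mice 250 µg of exosomes in 200 µL of PBS, 2 times a week for 4 weeks. Liver RNA was sequenced from 3 libraries per group, while the 3 hADMSCs samples were not analysed here. The labels do not say whether each library came from a mouse of its own, so p-values measure the spread between these libraries.

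Neutrophils are short-lived granulocytes that are made in the bone marrow, circulate in blood and enter injured liver. They fill their granules in stages while they mature: the primary granules, with myeloperoxidase and elastase, come first, the secondary granules, with lactoferrin and the cathelicidin, come next, and the cytosolic S100 proteins accumulate alongside. Some of these genes, Mpo, Elane, Camp, Ltf and Ngp among them, are transcribed mostly in immature cells of the marrow, whereas Retnlg and Csf3r are high in mature neutrophils, and Csf3r is also read in monocytes.

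The 8 genes lie on 5 chromosomes of GRCm38, and their coordinates in the table are those of GENCODE for protein-coding genes. S100a8 (3 exons, + strand) lies at chr3:90668978-90670035, and S100a9 (3 exons, - strand) at chr3:90692632-90695721. The 2 genes are 22.6 kb apart with 0 protein-coding genes between them, and their products form the heterodimer calprotectin. Camp (4 exons, chr9:109847379-109849617), Ngp (4 exons, chr9:110419747-110423012) and Ltf (17 exons, chr9:111019271-111042767) share a stretch of chromosome 9, with gaps of 570.0 kb and 596.0 kb that hold 8 and 20 protein-coding genes. Retnlg (4 exons) lies at chr16:48872621-48874496, Csf3r (15 exons) at chr4:126024550-126044440 and Mpo (14 exons) at chr11:87793581-87804413. Mpo overlaps Gm11505 on the opposite strand, and since the use of strand in counting is not given in the sources used here, reads of the 2 cannot be told apart.

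The stretch before the start of transcription is shown for the 4 genes whose levels ran most alike and for Csf3r, whose level ran apart from them (see their values further on). The sequences are RefSeq's on GRCm38.p6, read 5′ to 3′ on the strand of the gene, and end at the last base before the first annotated start, which leaves 141 to 250 bases. Capitals mark matches to TTNNGNAA on either strand, the letters bound by the C/EBP factors of the granulocyte lineage.
S100a9, chr3:90695722-90695971, - strand: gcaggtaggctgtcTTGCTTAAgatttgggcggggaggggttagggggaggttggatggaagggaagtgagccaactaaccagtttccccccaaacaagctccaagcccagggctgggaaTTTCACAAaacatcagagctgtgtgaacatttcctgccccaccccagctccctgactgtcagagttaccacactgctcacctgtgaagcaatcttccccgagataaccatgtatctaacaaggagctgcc
S100a8, chr3:90668821-90668977, + strand: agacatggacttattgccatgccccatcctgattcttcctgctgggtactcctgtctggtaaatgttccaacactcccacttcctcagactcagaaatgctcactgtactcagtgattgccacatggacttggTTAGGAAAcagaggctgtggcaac
Ngp, chr9:110419558-110419746, + strand: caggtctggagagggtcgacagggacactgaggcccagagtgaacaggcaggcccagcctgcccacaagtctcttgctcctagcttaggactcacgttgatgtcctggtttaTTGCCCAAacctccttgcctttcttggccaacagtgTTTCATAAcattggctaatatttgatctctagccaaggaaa
Ltf, chr9:111019042-111019270, + strand: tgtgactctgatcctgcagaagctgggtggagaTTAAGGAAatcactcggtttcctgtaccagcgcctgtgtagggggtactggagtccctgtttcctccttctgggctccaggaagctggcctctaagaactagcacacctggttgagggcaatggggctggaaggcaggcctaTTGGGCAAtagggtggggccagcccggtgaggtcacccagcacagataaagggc
Csf3r, chr4:126024409-126024549, + strand: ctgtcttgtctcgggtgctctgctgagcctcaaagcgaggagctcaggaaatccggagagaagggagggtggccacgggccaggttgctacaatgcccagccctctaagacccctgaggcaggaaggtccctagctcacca
Searched over 250 bases before the RefSeq start, TTNNGNAA was found in 5 of the 8 genes: in S100a8 with 1 match, S100a9 with 2, Retnlg with 1, Ngp with 3 and Ltf with 2. Of 32851 RefSeq windows of the same length, 36.8% held it. Csf3r, Camp and Mpo had no match, and of these Mpo ran close to Ngp in level (see further on). The match in S100a8 lies 117 to 110 bases before the start, those in S100a9 at 236 to 229 and 130 to 123, and the nearer one in Ltf at 75 to 68. GAGGAA on either strand, the core that PU.1 binds, was found in S100a8, Csf3r, Ltf and Mpo, 4 of the 8, and in 23.3% of all windows, and no GAGGAA match overlapped a TTNNGNAA match. These matches describe letters only, and no binding was measured.

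Read counts and their error set what can be seen of these genes. Library totals ranged from 13837445 to 19840917 counts, and the mean count of a neutrophil gene ran from 16.7 (Mpo) to 220.0 (S100a9) per library. The markers of hepatocytes summed to 77300 to 166000 CPM (counts scaled to a common library total) in the 9 libraries. The library LFG 3 stood apart from LFG 1 and LFG 2: it held 284 counts of Lyz2 against 8907 and 6212, and 30 counts of Col1a1 against 6147 and 2281, so values without it are given beside the main ones. In CPM its Col1a1 (2.68) lay under every REG library (15.9 to 28.3) and every treated library (5.74 to 12.6). The term fibrotic livers therefore names the LFG group by its treatment. Ly6g, whose protein defines mouse neutrophils in sorting, had 0 to 7 counts per library, Cxcr1 had 0 to 4, and Stfa1 and Stfa2 had 0 in every library. The eosinophil genes Epx, Ear1 and Ear6 were also at 0 throughout.

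Per length, S100a9 was the highest of the 8 genes in 9 of 9 libraries, with a mean of 25.0 FPKM. S100a8 followed at 7.72 FPKM, Ngp at 5.15, Csf3r at 2.97, Retnlg at 2.94, Camp at 1.97, Ltf at 1.12 and Mpo at 0.29. The ranges of neighbours in this order overlapped for every pair. S100a8 was second in 7 libraries and Csf3r in the other 2, LFG 1 and LFG 2, and Mpo was last in 8 of 9. The ratio of S100a9 to S100a8 in FPKM stayed between 2.47 and 4.78.

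**Figure D1:**
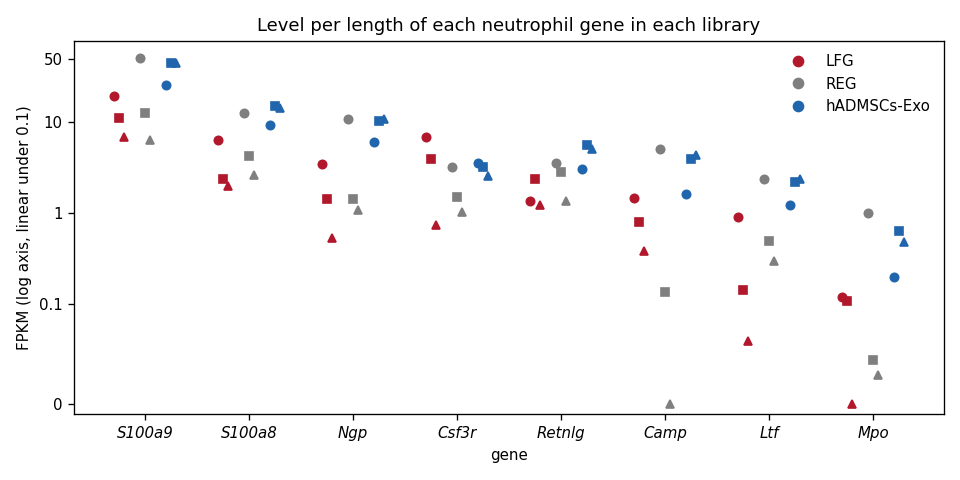
FPKM of the 8 neutrophil genes (x axis, in order of their mean) in each of the 9 libraries, on a log axis that is linear under 0.1 FPKM; colours give the group and circle, square and triangle give replicate 1, 2 and 3. S100a9 is highest and Mpo lowest on average, and REG replicate 1 sits beside the exosome-treated libraries for every gene.

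The calprotectin genes come first. S100a8 had 77, 27 and 19 counts in LFG 1, 2 and 3, 148, 58 and 36 in REG, and 108, 174 and 169 in hADMSCs-Exo, which made 2.15 ± 0.95, 4.74 ± 3.84 and 9.17 ± 2.41 CPM (SD, n = 3). Every exosome-treated library lay above every LFG library, while REG replicate 1 lay among the treated ones and REG 2 and 3 nearer to LFG. S100a9 had 175, 97 and 50 counts in LFG, 451, 130 and 67 in REG and 225, 387 and 402 in hADMSCs-Exo, or 5.75 ± 1.48, 12.8 ± 13.1 and 20.7 ± 6.43 CPM (SD, n = 3). It showed the same layout, with REG replicate 1 above all other libraries.

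Ngp, which encodes neutrophilic granule protein, had 73, 29 and 9 counts in LFG, 224, 34 and 26 in REG and 123, 210 and 226 in hADMSCs-Exo. Ltf, which encodes the iron-binding protein lactoferrin, had 54, 8 and 3 counts in LFG, 136, 33 and 20 in REG and 69, 125 and 139 in hADMSCs-Exo. For both genes the LFG and exosome-treated libraries did not overlap, and REG replicate 1 was level with the highest treated libraries. Camp, which encodes the antimicrobial cathelicidin, had 19, 10 and 4 counts in LFG, 64, 2 and 0 in REG and 20, 49 and 56 in hADMSCs-Exo. Mpo, the peroxidase of primary granules, had 7, 6 and 0 counts in LFG, 57, 3 and 2 in REG and 11, 36 and 28 in hADMSCs-Exo. A count of 0 allows up to 3 counts in a library, for Camp in REG 3 out of 19840917 and for Mpo in LFG 3 out of 13837445, counting error only. These 2 genes split REG most widely, since replicate 1 held the highest level of all 9 libraries and replicates 2 and 3 were at or under the LFG libraries but for the Mpo of LFG 3.

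Retnlg, a resistin-like secreted protein of neutrophils, had 14, 23 and 10 counts in LFG, 35, 33 and 16 in REG and 30, 55 and 51 in hADMSCs-Exo. Its spread within REG was smaller than that of the granule genes, and LFG and treated libraries again did not overlap once scaled to CPM. Csf3r, the receptor for granulocyte colony-stimulating factor, had 435, 234 and 37 counts in LFG, 193, 107 and 74 in REG and 210, 193 and 156 in hADMSCs-Exo. Its order was another one: LFG 1 and LFG 2 were the 2 highest of the 9 libraries and LFG 3 the lowest, so that the treated libraries lay inside the LFG range. Its ligand, Csf3, had 0 counts in all 9 libraries.

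**Figure D2:**
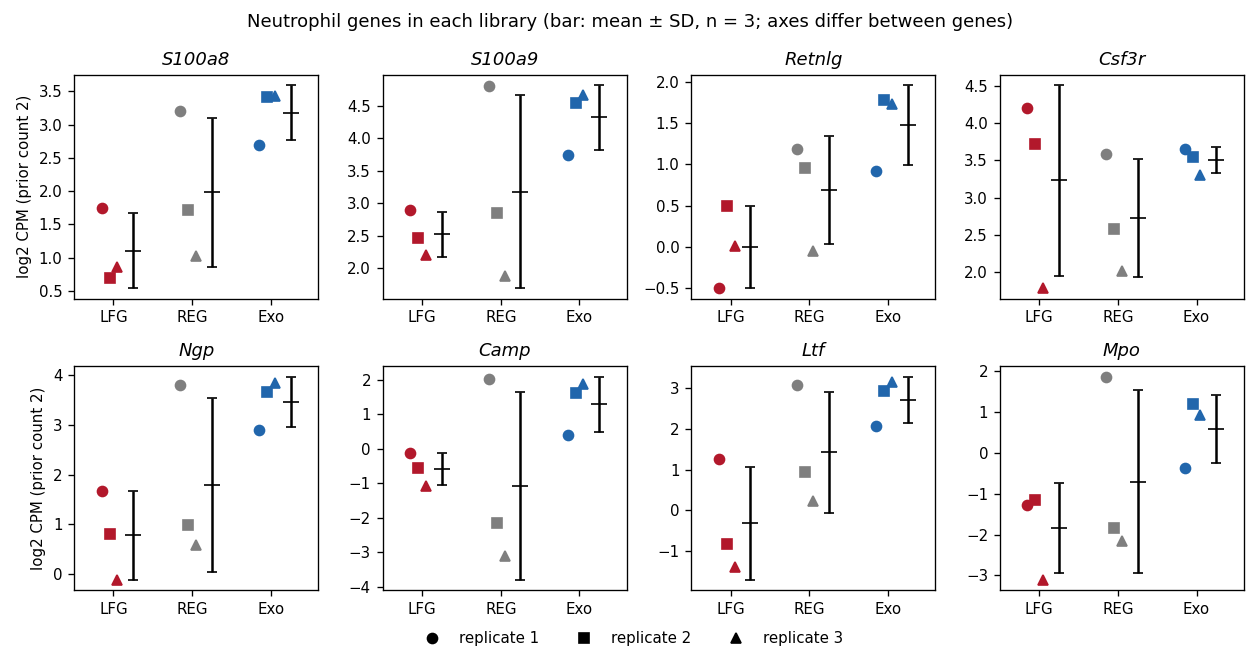
Log2 CPM (prior count 2) of each neutrophil gene in the 3 libraries of LFG, REG and hADMSCs-Exo, with the mean ± SD (n = 3) beside the points; symbols give the replicate and the axis differs between panels. In every panel but that of Csf3r the exosome-treated libraries sit above the LFG libraries, and in every panel REG replicate 1 sits above REG replicates 2 and 3.

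Treated livers were first compared with fibrotic livers at the end of CCl4. The 2 groups differ at once in the exosomes, the injections and 4 further weeks, so the part of each cannot be told apart. Of the 8 genes, 7 were higher in every hADMSCs-Exo library than in every LFG library, all but Csf3r, against 6.35% of the 12489 genes tested. The difference came to 4.18-fold for S100a8 (log2 fold change 2.06, SE 0.42, 95% interval 1.06 to 3.07), 3.54-fold for S100a9 (1.82, SE 0.34) and 2.98-fold for Retnlg (1.57, SE 0.49). It was 6.00-fold for Ngp (2.58, SE 0.54), 6.41-fold for Ltf (2.68, SE 0.80), 4.28-fold for Camp (2.10, SE 0.59) and 6.46-fold for Mpo (2.69, SE 0.91). Csf3r differed by -0.06 (SE 0.56, 95% interval -1.38 to 1.26). The median log2 fold change of the 8 genes was 2.08, and that of all genes tested was -0.06. Camp, Ltf and Mpo passed the filter on low counts through the treated libraries, since 2, 1 and 0 LFG libraries reached its level, so the filter had a part in this count and in the median.

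None of these differences passed the adjusted test. A gene was called when its adjusted p (edgeR quasi-likelihood test, Benjamini-Hochberg) lay under 0.05 and its log2 fold change reached 1 in either direction. By this rule 0 of the 8 genes and 0 of all genes (0.0%) were called, the adjusted p being 0.805 for each of the 7 genes and 0.991 for Csf3r. The same 7 genes had an unadjusted p under 0.05, from 0.00103 for S100a9 to 0.0201 for Mpo, where 5.98% of all genes had one, 2.3% being higher in hADMSCs-Exo. The limit set by the filter for Camp, Ltf and Mpo holds for this count too. DESeq2 called 58 genes (0.453%), 3 of them neutrophil genes: Ngp (adjusted p = 0.00231), S100a9 (0.00231) and S100a8 (0.00374). The exact permutation test of log2 CPM gave 0.1 for each of the 7, the smallest two-sided p that 3 against 3 libraries allow.

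With LFG 3 left out the differences kept a similar size and 3 of them passed the adjusted test. EdgeR then called 773 genes (5.97%, and 1.47% higher in hADMSCs-Exo), and S100a8 (1.94, adjusted p = 0.0399), S100a9 (1.70, adjusted p = 0.0318) and Ngp (2.27, adjusted p = 0.0291) were among them. All 7 genes were still higher without overlap, which leaving out a library cannot undo, against 23.9% of all genes with only 2 LFG libraries. Csf3r was then lower without overlap (-0.47, SE 0.22, adjusted p = 0.211), with 9.83 to 12.4 CPM in the treated libraries and 18.3 and 13.1 CPM in LFG 1 and LFG 2, as were 24.1% of all genes. In LFG 3 the macrophage markers (Adgre1, Cd68, Csf1r, Lyz2, Cd14) summed to 54.3 CPM, the lowest sum of the 9 libraries. All 5 of them were lowest in LFG 3 of all 9 libraries. The treated libraries lay between 389 and 479 CPM, above LFG 3 and below the 753 and 637 CPM of LFG 1 and LFG 2. Of these 5 markers 0 were called with all libraries (median -0.34), and without LFG 3 all 5 had a negative value (median -0.82) and 1, Adgre1, was called lower by edgeR. In a bulk library, more neutrophils and more RNA of these genes per cell cannot be told apart.

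Between treated and regressing livers, which differ in the exosomes and not in time, all 8 genes had a positive log2 fold change, as had 51.1% of the 12337 genes tested, with a median of 0.82 against 0.01. Camp and Mpo passed the filter on low counts through the treated libraries, 1 REG library reaching its level, so their place in that count is partly set by the filter. The sign of Mpo turned without REG 2 (-0.25), REG 3 (-0.27) or the treated replicate 2 (-0.05), so a count of 8 rests on each of these libraries. The values were 0.95 for S100a8 (SE 0.53, 95% interval -0.26 to 2.17), 0.68 for S100a9 (SE 0.66), 0.79 for Retnlg (SE 0.43) and 0.64 for Csf3r (SE 0.38). They were 1.00 for Ngp (SE 0.78), 0.93 for Camp (SE 1.21), 0.85 for Ltf (SE 0.70) and 0.29 for Mpo (SE 1.09, 95% interval -2.22 to 2.79). None passed: edgeR called 0 of the 8 genes and 1 of all genes (0.00811%), 0 of the 8 had an unadjusted p under 0.05 (10.0% of all genes), and DESeq2 called 0 of the 8 and 68 of all genes (0.525%). Adjusted p-values of edgeR ran from 0.57 for Retnlg to 0.946 for Mpo, and the exact permutation p from 0.2 to 0.4. The libraries of the groups overlapped for 8 of 8 genes, where 8.07% of all genes were higher without overlap.

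That overlap depended on the libraries taken. Without the treated replicate 1, the lowest of its group in S100a8 and in Retnlg, these 2 genes were higher without overlap, as were 13.4% of all genes. With REG 1 left out, 7 of the 8 genes, all but Retnlg, were higher in every treated library than in both remaining REG libraries, against 14.7% of all genes, and the log2 fold change was 1.86 for S100a8, 1.96 for S100a9, 2.82 for Ngp and 2.25 for Ltf, with 0 of the 8 called by edgeR (0.0% of all genes called higher). The REG library in which Camp and Mpo reached the filter's level was REG 1, so without it they are in that count through the treated libraries alone. REG 2 and REG 3 held 2 and 0 counts of Camp and 3 and 2 of Mpo, too few to give a fold change. REG 1 also had the highest sum of red blood cell markers (Hba-a1, Hba-a2, Hbb-bs, Hbb-bt, Alas2), 883 CPM against 466 in REG 2 and 186 in REG 3. Its macrophage markers (537 CPM against 334 and 238), its Kupffer cell markers (943 against 416 and 261) and its NADPH oxidase genes (151 against 83.5 and 60.6) were the highest of the group as well. Among the treated libraries the red blood cell sum was 108 CPM in replicate 1, where Ngp, Camp, Ltf and Mpo summed to 13.2 CPM, and 519 CPM in replicate 3, where they summed to 28.3 CPM. These 4 genes summed to 29.6 CPM in REG 1, 3.95 in REG 2 and 2.55 in REG 3. Between treated and regressing livers 0 of 5 red blood cell markers had a positive value (median -0.72). Macrophage markers had 4 of 5 (median 0.23), Kupffer cell markers 3 of 5 (median 0.20) and T cell markers 5 of 5 (median 0.70), where 51.1% of all genes had one. In these lists 0 genes were called. The part of these cells in the level of REG 1 was not tested.

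Between regressing and fibrotic livers, 7 genes passed the filter on low counts and Mpo did not. Ltf passed through the REG libraries, with 1 LFG library at the filter's level. Their log2 fold changes were 1.14 for S100a8 (SE 0.66), 1.17 for S100a9 (SE 0.73), 0.81 for Retnlg (SE 0.55), 1.63 for Ngp (SE 0.98), 1.21 for Camp (SE 1.52), 1.87 for Ltf (SE 1.05) and -0.67 for Csf3r (SE 0.66). The groups overlapped for 8 of 8 genes, where 8.91% of the 12517 genes tested were higher without overlap. By edgeR 0 of the 8 genes and 0 of all genes (0.0%) were called, and 0 of the 8 had an unadjusted p under 0.05 (11.3% of all genes). DESeq2 called 0 of the 8 and 232 of all genes (1.81%). Adjusted p-values of edgeR lay between 0.534 and 0.775. Without REG replicate 1 the value was -0.15 for Ngp, -0.06 for S100a9 and -3.22 for Camp, so the sign of these 3 genes rests on 1 library. For Camp that value rests on the 2 and 0 counts of REG 2 and REG 3. The sign of Camp also turned with all libraries kept, under limma with voom and with the replicate number as a block. Its difference of mean log2 CPM was -0.49. Without LFG 3 the value was 1.02 for S100a8, 1.04 for S100a9, 0.83 for Retnlg, 1.29 for Ngp, 0.99 for Camp and 1.46 for Ltf, with 0 of the 8 called by edgeR. Csf3r was then at -1.08 (SE 0.43, adjusted p = 0.109) and lower in every REG library than in LFG 1 and LFG 2, as were 28.6% of all genes. The 3 comparisons share their libraries in pairs, and their values are given side by side only.

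**Figure D3:**
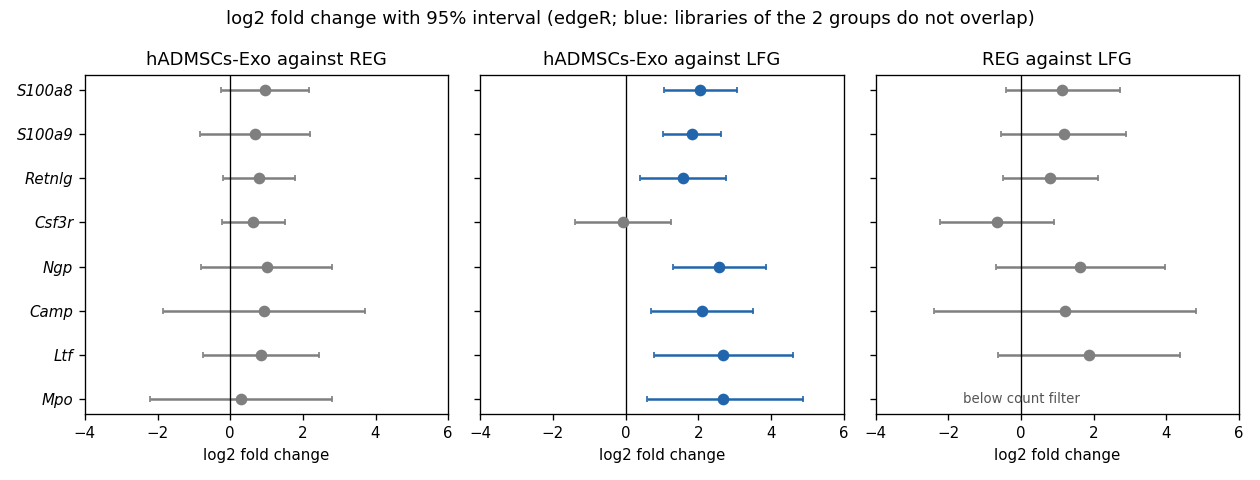
Log2 fold change with its 95% interval (edgeR) of each neutrophil gene in the 3 comparisons; blue marks genes whose libraries do not overlap between the groups. The intervals of 7 genes lie above 0 for hADMSCs-Exo against LFG, before adjustment over all genes, and every interval of the other 2 comparisons includes 0.

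Other genes of the neutrophil programme were read from 7 lists with 64 genes. For treated against fibrotic livers 42 were tested, of which 22 had a positive value (43.1% of all genes tested), 0 were called by edgeR and 4 were higher and 2 lower at an unadjusted p under 0.05 (2.3% and 3.68% of all genes), with a median of 0.12. Without LFG 3, 18 of 43 had a positive value (50.3% of all genes) with a median of -0.06, and edgeR called genes in both directions, among them Cebpe higher and C5ar1, Cxcr4 and Cybb lower, against 1.47% and 4.5% of all genes. The granule lists stood on the higher side: both tested genes of the primary granules, Prtn3 (3.31, SE 0.78) and Elane (2.96, SE 0.85), and 6 of 6 tested genes of the secondary and tertiary granules (median 1.32), of which 0 had an unadjusted p under 0.05. Elane, Mmp8 and Cd177 passed the filter on low counts through the treated libraries, with 1 LFG library each at its level, and Mmp9, Pglyrp1 and Chil3 with 2, so the filter had a part in these counts. Without LFG 3 Prtn3 was at 3.26 and Elane at 2.68, and the 6 genes had a median of 1.02, with 0 called. Elane, the neutrophil elastase, had 12, 1 and 1 counts in LFG, 72, 6 and 2 in REG and 18, 35 and 41 in hADMSCs-Exo, the layout of Ngp. Prtn3, the protease 3 gene, had 88, 42 and 28 counts in LFG, 590, 200 and 343 in REG and 140, 253 and 1000 in hADMSCs-Exo, so here all REG libraries were above LFG too. Prtn3 had an adjusted p of 0.805 by edgeR and 0.00341 by DESeq2.

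The lists for the NADPH oxidase, adhesion and recruitment had medians under 0 in that comparison. Of the 6 subunit genes of the NADPH oxidase, 1 was higher and 5 lower (median -0.12), of 7 adhesion genes 2 were higher and 5 lower (median -0.10), and of 8 genes of recruitment 3 were higher and 5 lower (median -0.37). The mean deviation in log2 CPM of each of the 3 lists was lowest in LFG 3. Without that library 6 of 6 oxidase genes had a negative value (median -0.57), as had 5 of 7 adhesion genes (median -0.51) and 7 of 8 recruitment genes (median -0.58). Cxcl1, a chemokine that draws neutrophils, was lower in CPM in every treated library (12.9, 19.1 and 18.0) than in every LFG library (27.6, 30.5 and 24.9), as were 5.93% of all genes (-0.74, SE 0.22). Its counts were 655, 546 and 278 in LFG and 218, 317 and 286 in hADMSCs-Exo, and its adjusted p was 0.805 by edgeR. Il1b, the interleukin, was at 1.19 (SE 0.38), Hdc, which makes histamine, at -1.31 (SE 0.46) and Mxd1 at -0.56 (SE 0.24), each with the same adjusted p of 0.805. Without LFG 3 Cxcl1 was at -0.79, Il1b at 1.21, Hdc at -0.67 and Mxd1 at -0.47, with 0 of these 4 called.

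For treated against regressing livers 35 of 40 tested genes of these lists had a positive value (51.1% of all genes; median 0.34) and 0 were called by edgeR, with 3 higher and 1 lower at an unadjusted p under 0.05 (5.34% and 4.69% of all genes). Elane, Mmp8, Pglyrp1 and Cd177 passed the filter on low counts through the treated libraries, with 1 REG library each at its level, so the filter had a part in this tally. The smallest p among the positive values belonged to Acod1, which makes itaconate (1.91, SE 0.49, adjusted p = 0.38 by edgeR and 0.022 by DESeq2), Mmp8, the neutrophil collagenase (1.61, SE 0.57), and Itgam, the integrin chain of CD11b (1.40, SE 0.48). Acod1 had 35, 16 and 17 counts in REG and 46, 114 and 82 in hADMSCs-Exo. Cebpe, a factor needed for secondary granules, was at -0.90 (SE 0.27), Cxcl1 at -0.56 (SE 0.28) and Cebpa at -0.47 (SE 0.24). Cebpe had 205, 426 and 282 counts in REG and 122, 138 and 185 in hADMSCs-Exo. For regressing against fibrotic livers 11 of 38 had a positive value (44.1% of all genes; median -0.28) and 0 were called by edgeR, with 1 higher and 3 lower at an unadjusted p under 0.05 (4.62% and 6.7% of all genes). Without LFG 3, 11 of 42 had a positive value (median -0.56), and edgeR called 4 higher, Prtn3, Cebpe, Cebpa and Wfdc21, and 8 lower, Hdc, Clec4d, Itgam, Itgb2, Runx1, Cybb, C5ar1 and Cxcr4, against 3.81% and 6.94% of all genes. Prtn3 was at 2.94 (SE 0.50, adjusted p = 0.243 by edgeR and 7.16e-06 by DESeq2), Cebpe at 1.44 (SE 0.67) and Il1b at 0.85 (SE 0.40). Hdc was at -1.79 (SE 0.45), Clec4d, a C-type lectin of phagocytes, at -1.69 (SE 0.54) and Itgam at -1.65 (SE 0.68). Without LFG 3 these 6 genes were at 2.88 (Prtn3), 2.63 (Cebpe, SE 0.33, adjusted p = 0.0123 by edgeR), 0.89 (Il1b), -1.12 (Hdc, SE 0.22, adjusted p = 0.0223), -1.88 (Clec4d) and -2.05 (Itgam).

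Over the 9 libraries the levels of S100a8, S100a9, Ngp, Ltf and Mpo ran close to each other. Pearson's r of log2 CPM was 0.973 between S100a8 and Ngp (Spearman's rho 0.933), 0.969 between S100a8 and S100a9 (rho 0.883), 0.96 between Ngp and Ltf (rho 0.983) and 0.962 between Ngp and Mpo (rho 0.90). With the 2 libraries farthest from the median left out these were 0.954, 0.948, 0.935 and 0.951. Camp was at 0.881 with Ngp (0.792 without the 2 farthest libraries), 0.918 with S100a9 and 0.745 with Ltf. Retnlg was at 0.805 with S100a8 and 0.775 with Ngp. Csf3r was at 0.605 with Ngp (rho 0.367) and 0.47 with S100a8 (rho 0.133), and without LFG 3 at 0.424 and 0.299. These values describe 9 libraries that share their groups and scaling, and counts of a few reads enter them for Camp and Mpo.

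**Figure D4:**
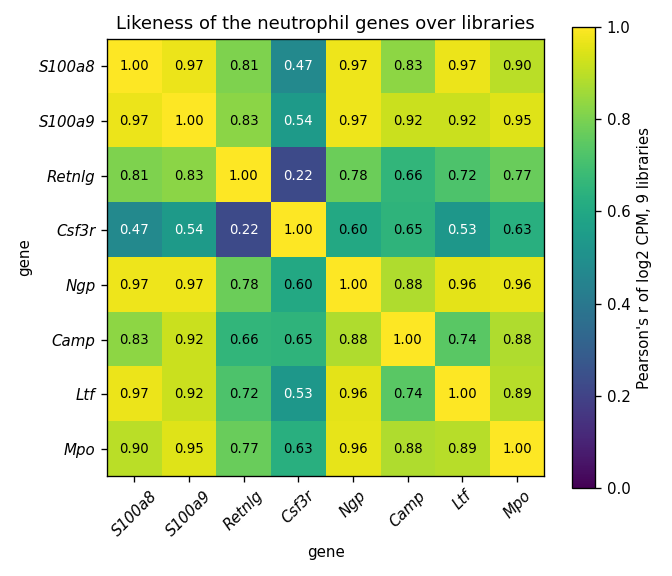
Pearson's r of log2 CPM between each pair of the 8 neutrophil genes over the 9 libraries (both axes: genes; colour and number: r). Values among S100a8, S100a9, Ngp, Ltf and Mpo run from 0.893 to 0.974, and those of Csf3r from 0.223 to 0.649.

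The members set aside, 12752 other genes were compared with each of them. The one most like S100a8 over the 9 libraries was Elane (r = 0.975), and Elane also led for S100a9 (0.974), Ngp (0.967) and Ltf (0.958). Lat and Rasgrp4 came next for S100a8 (0.937 and 0.932) and for S100a9 (0.942 and 0.935), Gbp8 and Gpat3 for Ngp (0.942 and 0.939), and Mmp9 and Cd177, both neutrophil granule or surface genes, for Ltf (0.957 and 0.953). Mpo was most like Pglyrp1 (0.941), Timd4 (0.936) and Gbp8 (0.933), and Camp most like Map3k15 (0.932), Arhgap4 (0.931) and Acap1 (0.884). Retnlg was most like Cxcl13 (0.907), Septin1 (0.905) and Mt1 (0.905). Csf3r had other leading genes, Apbb1ip (0.976), Nod2 (0.97) and Atp13a2 (0.969), none of which led for another member.

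Set beside marker lists of other cells, Csf3r was high in LFG 1 and LFG 2 and low in LFG 3, a layout that several lists had. Its deviation from its mean over the 9 libraries was 1.05, 0.57 and -1.38 on the log2 scale in LFG 1, 2 and 3, where the macrophage list stood at 1.22, 0.84 and -2.62 and the NADPH oxidase list at 1.00, 0.72 and -1.92. The monocyte list stood at 1.74, 0.30 and -2.69, the adhesion list at 0.78, 0.47 and -1.48 and the stellate cell list at 2.75, 2.23 and -2.53, so the layout was not one of phagocyte lists alone. The mean deviation of Ngp, Camp, Ltf and Mpo was -0.24, -1.06 and -2.05 there, and 0.61, 1.73 and 1.82 in the treated libraries, where the macrophage list stood at 0.20, 0.28 and 0.40. T cell markers had positive values between treated and fibrotic livers, as the granule genes had, with 5 of 5 higher (median 1.03; 0.59 without LFG 3), 0 called and summed levels of 2.41 (LFG 3) to 13.7 CPM in LFG and 14.9 to 17.8 in hADMSCs-Exo. So did B cell markers, with 4 of 4 higher (median 1.22; 1.29 without LFG 3), 0 called and 2.77 to 3.63 against 7.24 to 8.25 CPM. Red blood cell markers were higher for 5 of 5 (median 0.76; 0.54 without LFG 3), 0 called, with overlapping sums of 93.7 to 222 and 108 to 519 CPM. The part of these cells in the neutrophil genes' levels was not tested.

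**Figure D5:**
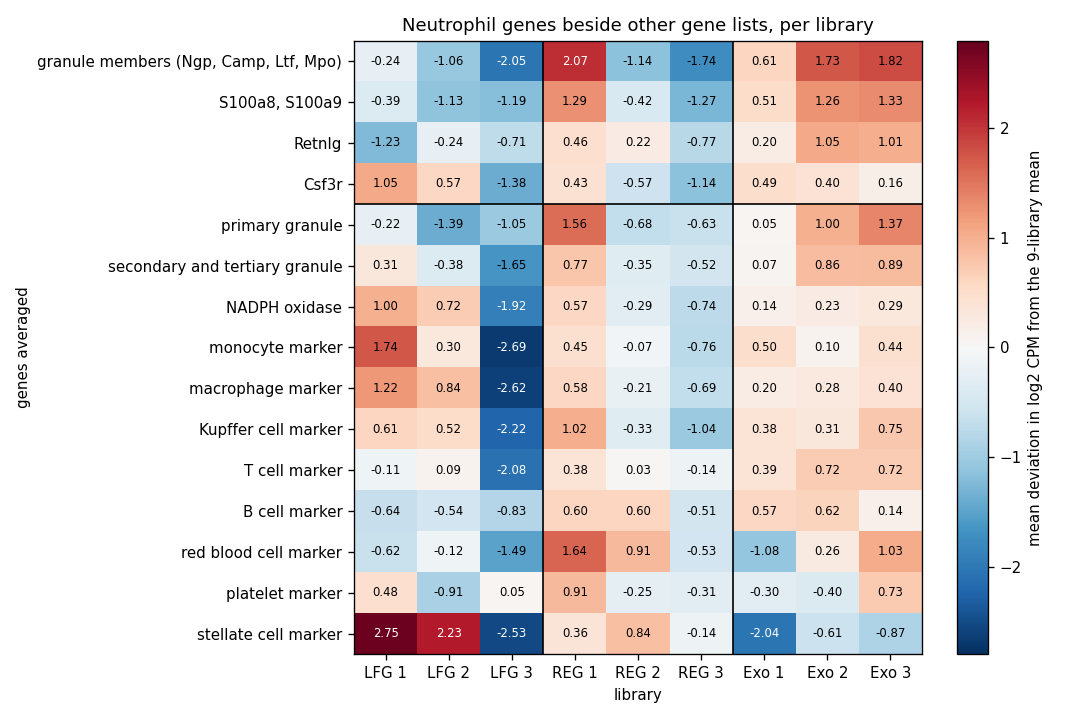
Mean deviation in log2 CPM from the 9-library mean (colour and number) of the neutrophil genes (upper 4 rows) and of gene lists for other neutrophil functions and other cells (lower rows) in each library (columns). The granule genes are above their mean in REG replicate 1 and the 3 exosome-treated libraries, whereas the macrophage and stellate cell lists are highest in LFG 1 and LFG 2.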

How the data were processed

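The authors deposited a table with raw counts per gene and FPKM for 9 liver libraries of 3 groups. The submitters' processing notes name cutadapt 1.15, HISAT2 2.0.5, HTSeq 0.9.1, DESeq 1.30.0 and GRCm38, and the libraries were made with an NEBNext Ultra kit from 3 µg of RNA. The deposited FPKM equals counts per length and total within a relative 9.19e-07 and served only to compare levels between genes. Columns headed MSC_E were read as the hADMSCs-Exo group. The labels give no batch or date.

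Counts were tested with edgeR 4.0.16 (R 4.3.3) (quasi-likelihood, two-sided) on the 6 libraries of each comparison, with TMM factors and filterByExpr. P-values were adjusted by Benjamini-Hochberg over all genes tested, and a gene was called where that p lay under 0.05 and its log2 fold change reached 1 in either direction. CPM was scaled by TMM over the 9 libraries, and log2 CPM used a prior count of 2. The fit was also run on simulated counts, in which only genes with higher mean counts than Camp, Mpo and Retnlg were changed. That run therefore does not show the power of the test for these genes. Exact permutation tests used scipy 1.17.1 (Python 3.11.15), tables pandas 2.3.3 and plots matplotlib 3.10.9. Alternatives were RLE factors, library totals alone, DESeq2 1.42.0, limma 3.58.1 with voom and quality weights, no filter (a minimum of 1 count) or a minimum of 10 in each library, a joint fit of all 9, a replicate block, the p threshold alone, unadjusted p-values, a prior count of 0.5 and each library left out. Counts of non-overlapping genes with a library left out, correlations without the 2 farthest libraries, and lists without LFG 3 were settings chosen after seeing the data.

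The members, the lists of genes and the tests were chosen with earlier results of these data known. Named are the 8 members, of the listed neutrophil genes up to 3 higher and 3 lower per comparison with the smallest p, the 3 non-member genes most like each member with a mean of at least 10 counts, and markers beside a result. The genes at 0 or few counts (Ly6g, Cxcr1, Csf3, Stfa1, Stfa2) and the listed genes called without LFG 3 were named after their values were seen, and 1 listed gene is not reported here by name.

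Replicates of a group differed by more than sampling noise, the lowest chi-square per gene being 27. The groups share replicate numbers. Deviations of same-numbered hADMSCs-Exo and LFG libraries correlated across genes by 0.101, 0.308 and 0.18. The labels do not give the numbers as pairs, and libraries of unlike number were not compared, so these values do not show pairing. The main tests took the libraries as unpaired. Precision is limited by the spread between libraries and, for Camp and Mpo, also by counting. Intervals of counts cover counting error only. Promoters were matched by symbol for 8 of 8 genes.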

Additional observations from a re-analysis of the deposited data

How the results depend on the processing

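Of the neutrophil genes, 0 were called in hADMSCs-Exo against REG and in REG against LFG under every alternative run, while in hADMSCs-Exo against LFG 3 were called by DESeq2, 7 passed an unadjusted p under 0.05 with the limit on fold change, and 0 to 3 were called with a library left out (3 without LFG 3). Genes called in all were 1 for hADMSCs-Exo against REG, where DESeq2 gave 68, limma with voom 3, no filter 4, all 9 libraries in one fit 0, an unadjusted p 266 and leaving out a library 0 to 1. They were 0 for hADMSCs-Exo against LFG, with 58, 1, 1 (all 9 libraries) and 374 under DESeq2, voom, the joint fit and an unadjusted p, and 0 to 773 with a library left out. They were 0 for REG against LFG, with 232, 1285 and 537 under DESeq2, voom and an unadjusted p, and 0 to 1391 with a library left out. Without LFG 3 these last 2 comparisons gave 773 and 1391. Genes of the 8 that were higher without overlap numbered 0 to 7 for hADMSCs-Exo against REG with a library left out (10.6% to 16.2% of all genes), 7 each time for hADMSCs-Exo against LFG (9.02% to 23.9%), and 0 to 2 for REG against LFG (10.4% to 26.6%, and 12.3% where it was 2, without LFG 1). The 7 of hADMSCs-Exo against LFG could not fall, since leaving out a library cannot bring overlap. With a library left out the sign turned for Mpo in hADMSCs-Exo against REG (range -0.27 to 3.44; -0.25 without REG 2, -0.27 without REG 3, -0.05 without hADMSCs-Exo 2), for Csf3r in hADMSCs-Exo against LFG (-0.47 to 0.45; 0.45 without LFG 1, 0.03 without LFG 2, 0.05 without hADMSCs-Exo 3) and, in REG against LFG without REG 1, for Camp (-3.22 to 1.82, and -1.68 with voom), Ngp (-0.15 to 2.23) and S100a9 (-0.06 to 1.64). With the replicate number as a block 0 of the neutrophil genes were called in each comparison and 1, 0 and 0 of all genes in hADMSCs-Exo against REG, hADMSCs-Exo against LFG and REG against LFG, and the block turned the sign of Csf3r in hADMSCs-Exo against LFG (0.22) and of Camp in REG against LFG (-0.41). Same-numbered libraries correlated by 0.159, 0.00939 and 0.0336 for hADMSCs-Exo and REG, and by 0.415, -0.202 and 0.305 for REG and LFG. Libraries of unlike number were not compared here either, so whether the numbers mark pairs was not tested. The cause of these differences between settings was not tested. Mpo and Camp have few counts in LFG and in REG 2 and 3, which limits what can be seen of them.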
